A study of Rattus norvegicus with 6 samples.

Results

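The genes described here are 5 members of the CCN family, Ccn1 to Ccn5, and Ankrd1, which shares with Ccn1 and Ccn2 the control by the co-activator YAP. They were chosen by name: a probe set of the Affymetrix rat genome array was a member where the platform annotation gave it 1 gene symbol, equal to one of these 6 symbols or to an older alias (Cyr61, Ctgf, Nov, Wisp1 and Wisp2 for Ccn1 to Ccn5). The rule found 7 probe sets of 31042 other than controls, 2 for Ankrd1 and 1 for each CCN gene. Expression was measured in rat 3Y1 embryonic fibroblasts on 6 arrays, in 3 groups of 2 biological replicates. MUC1-CD tumors were 3Y1 cells that stably carried the cytoplasmic domain (CD) of the mucin MUC1 and were grown under the skin of the hindlimb of female athymic mice. MUC1-CD cultures were the same transfected cells in serum-containing medium, and Vector cultures were 3Y1 cells stably transfected with the empty vector and grown the same way. The sources used here do not say whether each line was 1 clone or a pool, how old the mice were, or whether an array held RNA of 1 mouse. Athymic mice lack T cells but keep other host cells, and tumor RNA was not separated from host RNA, so in tumors fewer cells of a type and less RNA per cell cannot be told apart.

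CCN proteins are secreted, cysteine-rich matricellular proteins: they bind integrins, proteoglycans and growth factors and change how cells respond to the matrix, without forming fibres themselves. Fibroblasts are a main source of Ccn1 and Ccn2, and both genes are rapidly induced by serum, stretch and actin tension through YAP or TAZ bound to TEAD factors, by the SRF co-activator MRTF and, for Ccn2, by TGF-beta. Ankrd1 encodes a muscle ankyrin repeat protein found in the nucleus and the sarcomere, and in cells outside muscle it serves as a readout of YAP activity.

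The promoters of Ccn2 and Ccn1 are shown because both genes are textbook YAP and TEAD targets, and their mean signals differed in opposite directions between tumors and cultures. The difference of Ccn1 did not pass the test described below against MUC1-CD cultures and passed it narrowly against Vector cultures. Each sequence runs 5′ to 3′ on the gene's own strand, from 250 bases before to 50 bases after the start site, and is RefSeq sequence of the GRCr8 build. Capitals mark the TEAD motif, GGAATG on either strand (read as CATTCC where it lies on the other strand). The Ccn2 window is at chr1:22624565-22624864 on the minus strand, and the Ccn1 window at chr2:237225640-237225939 on the minus strand.

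Ccn2: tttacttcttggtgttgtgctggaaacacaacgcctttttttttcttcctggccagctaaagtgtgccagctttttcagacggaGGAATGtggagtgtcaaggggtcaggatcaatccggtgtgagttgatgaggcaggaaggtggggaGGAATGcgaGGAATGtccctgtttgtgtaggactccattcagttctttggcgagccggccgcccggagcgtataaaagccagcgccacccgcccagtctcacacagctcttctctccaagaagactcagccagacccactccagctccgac

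Ccn1: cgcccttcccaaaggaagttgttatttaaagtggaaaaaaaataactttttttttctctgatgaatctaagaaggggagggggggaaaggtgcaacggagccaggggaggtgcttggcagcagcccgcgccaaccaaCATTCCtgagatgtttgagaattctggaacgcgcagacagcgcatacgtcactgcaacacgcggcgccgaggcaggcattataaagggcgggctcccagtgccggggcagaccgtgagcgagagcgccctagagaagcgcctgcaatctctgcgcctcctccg

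The Ccn2 window held 3 TEAD motifs, all on the gene's strand, and the Ccn1 window held 1, on the other strand. Of 33469 rat promoter windows of the same length, 14.2% held at least 1 such motif and 0.0956% (32 windows) held 3 or more. The 2 windows held 0 matches to the AP-1 motif TGANTCA, present in 7.33% of all windows, and 0 to the CArG box, present in 1.64%, each searched on both strands. A match describes these letters only. Promoters of 2 of the 6 genes were in the table, and Ccn3, Ccn4, Ccn5 and Ankrd1 are shown by their signals alone.

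All values below are MAS5 signals, the array's linear measure of brightness for a probe set, and were scaled by the authors to 1 trimmed mean per array. Changes are differences of log2(signal + 16) between group means, with the standard error (SE) from a limma fit of all 6 arrays, and each limma p was adjusted by the Benjamini-Hochberg method over the 18625 probe sets with a mean signal of at least 61.6, a threshold that all 7 member probe sets passed. A probe set is called changed where its adjusted p is under 0.05. This scale understates the change of low signals, the 2 arrays a group limit precision, and signals of different probe sets are not compared in level. Most of 13 fibroblast markers were well measured in every group: the intermediate filament gene Vim had signals of 23797 and 25074 in tumors, 20239 and 21146 in MUC1-CD cultures and 27322 and 26145 in Vector cultures. The matrix and surface markers Lum, Dcn and Fap were below a signal of 100 on all culture arrays, and Dcn, for one, had 799.7 and 709 in tumors, 39.2 and 40.5 in MUC1-CD cultures and 16.1 and 23.6 in Vector cultures. The rat Muc1 probe set, at 61.3 and 51.7 in tumors, 43.5 and 26.7 in MUC1-CD cultures and 92.6 and 83.2 in Vector cultures, lay below the threshold, and no source used here says whether it detects the introduced domain. The Vector arrays stood apart in their RNA controls. The Gapdh control gave a 3′ over 5′ ratio of 1.11 to 1.14 on tumor arrays and 1.11 to 1.18 on MUC1-CD culture arrays, against 11.5 and 17.8 on Vector replicates 1 and 2. The beta-actin control gave ratios of 2.97 to 3.25 on tumor arrays and 3.29 to 3.37 on MUC1-CD culture arrays, against 4.15 on Vector replicate 1 and 41.7 on Vector replicate 2, so by this control replicate 2 stood far apart and replicate 1 lay near the other arrays. Effects of RNA quality and of the Vector line therefore cannot be told apart in any comparison with Vector cultures. Tumor tissue was frozen before extraction and its RNA was cleaned on columns, so growth in an animal and these steps cannot be told apart. Division of each array by its own median would move the median change of all probe sets to -0.21 in tumors against MUC1-CD cultures, -0.25 in MUC1-CD cultures against Vector cultures and -0.46 in tumors against Vector cultures, where the scaling used gives 0.05, 0.07 and 0.12.

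**Figure D1:**
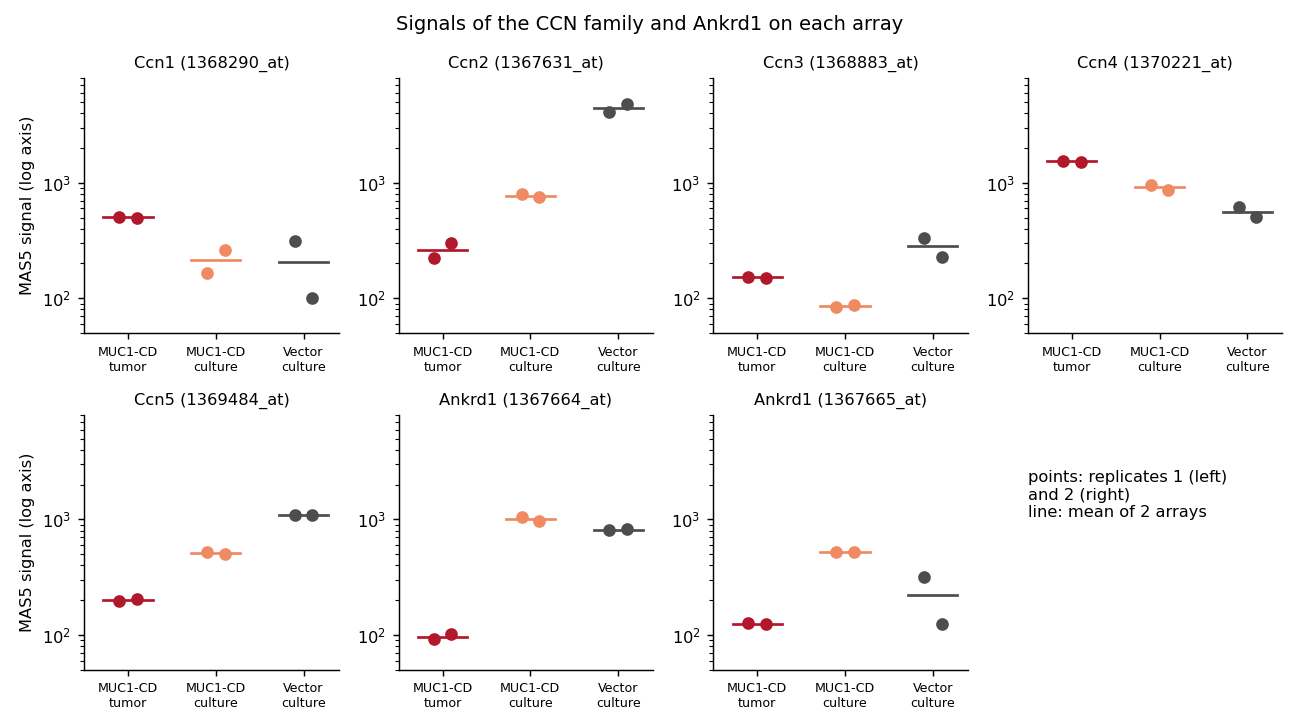
MAS5 signal (log axis) of the 7 member probe sets on each array; points are replicates 1 and 2 of MUC1-CD tumors, MUC1-CD cultures and Vector cultures, and lines are means of 2 arrays. Ccn2 and Ccn5 step up toward Vector cultures, Ccn4 steps down, both Ankrd1 probe sets are low in tumors, and the Vector replicates of Ccn1 and of the second Ankrd1 probe set lie far apart (311 and 100.2, 319.6 and 124).

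Ccn1 (Cyr61) encodes an adhesive protein that promotes the growth of blood vessels. Its signal was 508 and 498 in tumors, 166 and 263 in MUC1-CD cultures and 311 and 100.2 in Vector cultures. Tumors were highest on both arrays, while the culture groups overlapped and their order is not settled. Ccn2 (Ctgf) encodes connective tissue growth factor, which fibroblasts release when they are activated and which promotes matrix deposition. Ccn2 had 224 and 303 in tumors, 800.3 and 746 in MUC1-CD cultures and 4126 and 4816 in Vector cultures. No groups overlapped, and Vector cultures were far above the rest. Ccn5 (Wisp2) encodes a short CCN protein that lacks the carboxy-terminal cystine knot domain. It had 196 and 205 in tumors, 521 and 498 in MUC1-CD cultures and 1095 and 1093 in Vector cultures, in the same order as Ccn2 and again with no overlap.

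Ccn3 (Nov) encodes a CCN protein that restrains growth in many cell types. It had 154 and 151 in tumors, 83.9 and 87.1 in MUC1-CD cultures and 335 and 229.6 in Vector cultures. Its lowest group was thus MUC1-CD culture and its highest Vector culture. Ccn4 (Wisp1) was first described as a gene induced by WNT1 in mouse mammary cells. It had 1548 and 1516 in tumors, 957 and 866 in MUC1-CD cultures and 622 and 504 in Vector cultures, the reverse of the order of Ccn2 and Ccn5 and with no overlap.

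Ankrd1 had 92.4 and 101.3 in tumors, 1041 and 977 in MUC1-CD cultures and 806 and 831 in Vector cultures on probe set 1367664_at. On its other probe set, 1367665_at, it had 127 and 124 in tumors, 519 and 524 in MUC1-CD cultures and 319.6 and 124 in Vector cultures. Both probe sets were lowest in tumors and highest in MUC1-CD cultures, but on the second one Vector replicate 2 lay at the level of the tumors. That array had the highest ratios of both controls, 17.8 for Gapdh and 41.7 for beta-actin, and the part of RNA quality in the gap between the Vector replicates was not tested.

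Tumors were set against MUC1-CD cultures to ask what went with growth of the same cells in an animal. Ankrd1, Ccn2 and Ccn5 fell in tumors and Ccn4 rose. Of the 7 member probe sets, 1 was called higher and 4 lower, and the groups did not overlap on 7. Over all probe sets, 15.8% were called (8.54% higher, 7.31% lower) and 72.5% did not overlap; by gene, 18.8% were called. Division by array medians would make the split of these calls 929 higher and 3237 lower, in place of 1590 and 1362.

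The largest change was that of Ankrd1, which averaged 96.9 ± 6.29 in tumors and 1009 ± 45.4 in MUC1-CD cultures (SD, n = 2 each). This is a signal 10.4 times lower in tumors, or a log2 change of -3.18 (SE 0.14, limma adjusted p = 0.000125). Only 0.05% of the probe sets tested had a more negative change. The second Ankrd1 probe set changed by -1.93 (SE 0.38, limma adjusted p = 0.0189), from means of 125 ± 2.05 in tumors and 522 ± 3.04 in MUC1-CD cultures (SD, n = 2 each). Both probe sets therefore fell, by different amounts.

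Ccn2 averaged 264 ± 55.9 in tumors and 773 ± 38.4 in MUC1-CD cultures (SD, n = 2 each), a log2 change of -1.51 (SE 0.18, limma adjusted p = 0.00277). Ccn5 averaged 200.2 ± 6.22 in tumors and 509 ± 16.1 in MUC1-CD cultures (SD, n = 2 each), a log2 change of -1.28 (SE 0.14, limma adjusted p = 0.00199). Both lay among the lowest 1.69% of changes. Ccn4 averaged 1532 ± 22.3 in tumors and 912 ± 64.5 in MUC1-CD cultures (SD, n = 2 each) and rose by 0.74 (SE 0.15, limma adjusted p = 0.0208); 10.02% of probe sets had a higher change.

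Ccn1 averaged 503 ± 6.44 in tumors and 214 ± 69.2 in MUC1-CD cultures (SD, n = 2 each), with a log2 difference of 1.20 (95% interval 0.09 to 2.32) that did not pass the test (limma adjusted p = 0.134). The difference of Ccn3 was 0.73 (95% interval 0.19 to 1.27, limma adjusted p = 0.0774). The shared estimate of the spread includes the Vector arrays, whose Ccn1 signals lay far apart: in a fit of only these 2 groups, Ccn1 (adjusted p = 0.000463) and Ccn3 (adjusted p = 0.0152) were called higher in tumors, and 8144 probe sets were called in place of 2952. With 1 MUC1-CD array left out, the calls of Ccn4 (adjusted p = 0.129 to 0.181) and of the second Ankrd1 probe set (0.131 to 0.137) were lost, while those of Ccn2, Ccn5 and the first Ankrd1 probe set were not; the call of Ccn4 was also lost with median scaling (0.47, adjusted p = 0.0765).

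**Figure D2:**
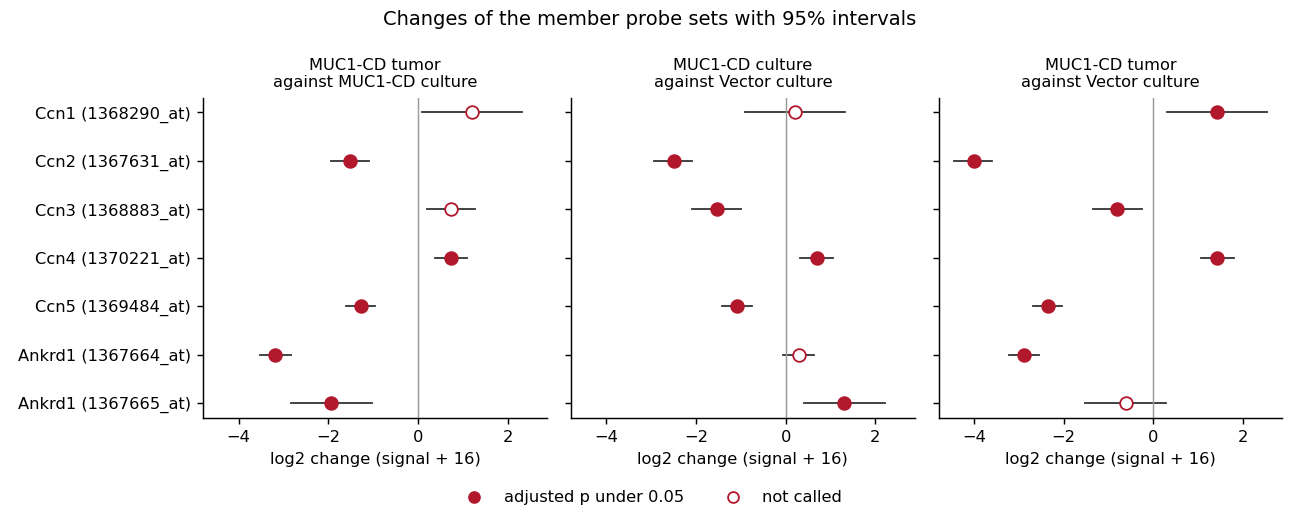
Change of each member probe set, as a difference of log2(signal + 16), with its 95% interval from limma, in tumors against MUC1-CD cultures, MUC1-CD cultures against Vector cultures and tumors against Vector cultures; filled points have an adjusted p under 0.05. Ccn2 and Ccn5 lie left of 0 in every panel, Ccn4 lies right of 0, and the first Ankrd1 probe set is lower only where tumors are compared (-3.18 and -2.89, against 0.30 between cultures).

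Markers of host cell types moved on the same arrays, and are given over all list genes on the array, whether or not they passed the signal threshold. The hosts were mice and the probe sets were made for rat, so mouse RNA is read only as far as it binds rat probes. How well each probe set reads mouse RNA was not tested, so a low marker signal does not show that a cell type was absent. The part of mouse RNA in the falls of members in tumors was not tested either. Of 19 skeletal muscle markers, 16 had both tumor arrays above both MUC1-CD culture arrays, 1 had both below and 2 overlapped. Skeletal muscle actin, Acta1, was at 5855 and 4971 in tumors and 3.7 and 5.1 in MUC1-CD cultures. Ankrd1, itself a gene of striated muscle, went the other way (-3.18). The summed muscle signal was 13677 to 14483 in tumors, 5284 to 5422 in MUC1-CD cultures and 18415 to 19194 in Vector cultures, and in both cultures it was carried by Myh1 and Tnnc1. Tnnc1, for slow muscle and cardiac troponin C, was at 731 and 747 in tumors, 1973 and 1985 in MUC1-CD cultures and 8681 and 7337 in Vector cultures, so the sum is no measure of muscle there. Of 12 endothelial markers, 8 were above and 2 below on both tumor arrays, with sums of 3032 to 3069 in tumors and 607 to 613 in MUC1-CD cultures. Aqp1, a water channel gene that other cell types also use, made up most of the tumor sum (1763 and 1550 in tumors, 33.3 and 20.7 in MUC1-CD cultures), whereas the endothelial adhesion gene Pecam1 had 17.8 and 27.5 in tumors and 38.1 and 9.2 in MUC1-CD cultures. Of 17 macrophage markers, 14 were above and 1 below, with sums of 8049 to 8160 in tumors and 3480 to 3759 in MUC1-CD cultures. Cd14 made up most of the sum in MUC1-CD cultures (2828 and 3052, with 3248 and 3289 in tumors), so that sum is no measure of macrophages there. For comparison, 72.5% of all probe sets that passed the threshold did not overlap between these groups, in either direction. None of the markers of these 3 lists was at 0 on any array. In MUC1-CD cultures 15 of 19 muscle, 10 of 12 endothelial and 14 of 17 macrophage markers were below a signal of 100 on both arrays. Of 12 pericyte and smooth muscle markers, 7 were above and 4 below on both tumor arrays. Of 7 adipocyte markers, 4 were above and 1 below. Adipocyte sums were 714 to 849.5 in tumors and 889 to 914 in MUC1-CD cultures. Of 10 keratinocyte and epithelial markers, 8 were above and 0 below. The part of all these markers in the signals of Ccn1, Ccn3 and Ccn4, which were higher on both tumor arrays, was not tested.

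MUC1-CD cultures were set against Vector cultures to ask what went with the transfected domain outside an animal. The labels name no further line of either kind, so the p values measure spread between replicates and not between transfected lines. In any comparison with Vector cultures, the domain and other differences between the lines cannot be told apart. Ccn2, Ccn3 and Ccn5 fell in MUC1-CD cultures, Ccn4 rose, and the probe sets of Ankrd1 did not give 1 answer. Of the 7 member probe sets, 2 were called higher and 3 lower, against 45.8% of all probe sets called (25.0% higher, 20.7% lower); counted by gene, 46.1% of 10037 genes were called. So much of the array was called that 5 calls of 7 say little about these genes. The groups did not overlap on 6, against 73.1% of all probe sets. Division by array medians would make the split of all calls 3083 higher and 6190 lower, in place of 4665 and 3857.

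Ccn2 averaged 773 ± 38.4 in MUC1-CD cultures and 4471 ± 488 in Vector cultures (SD, n = 2 each). The signal was 5.78 times lower in MUC1-CD cultures, a log2 change of -2.50 (SE 0.18, limma adjusted p = 0.000131), and 1.19% of probe sets had a more negative change. Ccn3 averaged 85.5 ± 2.26 in MUC1-CD cultures and 282 ± 74.6 in Vector cultures (SD, n = 2 each), a log2 change of -1.53 (SE 0.23, limma adjusted p = 0.00216). Ccn5 averaged 509 ± 16.1 in MUC1-CD cultures and 1094 ± 1.20 in Vector cultures (SD, n = 2 each), a log2 change of -1.08 (SE 0.14, limma adjusted p = 0.00118). These 3 falls were called whichever of the 6 arrays was left out.

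Ccn4 averaged 912 ± 64.5 in MUC1-CD cultures and 563 ± 84.1 in Vector cultures (SD, n = 2 each) and rose by 0.69 (SE 0.15, limma adjusted p = 0.0103), a call lost without MUC1-CD culture replicate 1 (adjusted p = 0.0915) or 2 (0.0569) and with median scaling (0.37, adjusted p = 0.0932). The first Ankrd1 probe set differed by 0.30 (95% interval -0.05 to 0.64, limma adjusted p = 0.138), and the second rose by 1.31 (SE 0.38, limma adjusted p = 0.0289). Without Vector replicate 2 the second probe set changed by 0.68 (adjusted p = 0.00488) and without Vector replicate 1 by 1.94 (adjusted p = 4.65e-06); with median scaling its call was lost (1.01, adjusted p = 0.0610), as it was in a fit of these 2 groups (0.0593), without either tumor array (0.0615 and 0.0616) and without either MUC1-CD culture array (0.124 and 0.130).

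Ccn1 differed by 0.21 between MUC1-CD and Vector cultures (95% interval -0.91 to 1.32, limma adjusted p = 0.742), an interval wide enough to hold a 2-fold rise. Its direction rests on single arrays. The change was 0.95 without Vector replicate 1 (adjusted p = 0.00498) and -0.54 without Vector replicate 2 (adjusted p = 0.0648).

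Tumors were also set against Vector cultures, a comparison that spans both steps and shares its arrays with them. Ccn2, Ccn5, Ccn3 and Ankrd1 on its first probe set fell in tumors, and Ccn4 and Ccn1 rose. Of the member probe sets, 2 were called higher and 4 lower, against 51.5% of all probe sets (29.1% higher, 22.4% lower) and 51.4% of genes, and 6 did not overlap, against 75.4%. With median scaling the calls over all probe sets would split into 2852 higher and 8511 lower, in place of 5422 and 4167.

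Ccn2 averaged 264 ± 55.9 in tumors and 4471 ± 488 in Vector cultures (SD, n = 2 each), a signal 17.0 times lower in tumors and a log2 change of -4.01 (SE 0.18, limma adjusted p = 2.10e-05). Of all probe sets tested, 0.25% had a more negative change. Ankrd1 on its first probe set changed by -2.89 (SE 0.14, limma adjusted p = 3.22e-05) and Ccn5 by -2.36 (SE 0.14, limma adjusted p = 5.24e-05). Ccn4 rose by 1.43 (SE 0.15, limma adjusted p = 0.000426), with 2.72 times the Vector signal.

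Ccn1 rose by 1.41 (SE 0.47, limma adjusted p = 0.0415) and Ccn3 changed by -0.80 (SE 0.23, limma adjusted p = 0.0243). Both calls were close to the threshold. The call of Ccn1 was lost without any 1 of the 4 MUC1-CD arrays (adjusted p = 0.0644 to 0.155), with median scaling (0.85, adjusted p = 0.148) and in a fit of these 2 groups (adjusted p = 0.0625). The call of Ccn3 was lost without any 1 of these arrays (0.0551 to 0.109), without Vector replicate 1 (-0.55, adjusted p = 0.0552) and in a fit of these 2 groups (adjusted p = 0.0508). Ccn1 moved to 2.16 without Vector replicate 1 and to 0.67 without Vector replicate 2. The second Ankrd1 probe set differed by -0.61 (95% interval -1.52 to 0.29, limma adjusted p = 0.215), and by -1.15 with median scaling (adjusted p = 0.0324), 0.02 without Vector replicate 1 (adjusted p = 0.939) and -1.25 without Vector replicate 2 (adjusted p = 7.99e-05).

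**Figure D3:**
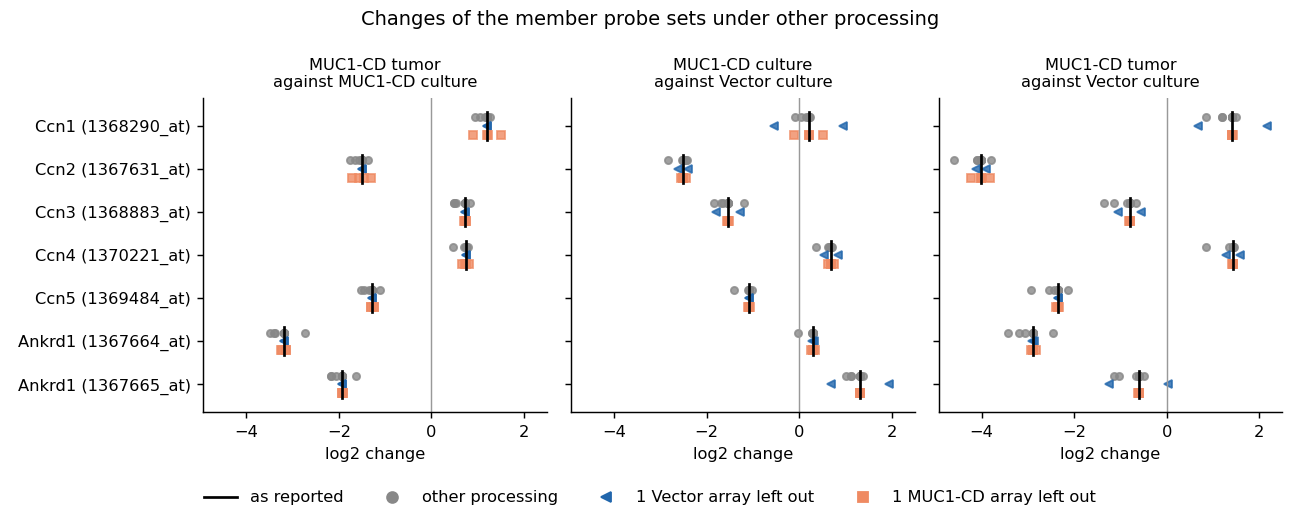
Change of each member probe set on the log2 scale as reported (black line), under other processing (grey points), with 1 Vector array left out (blue triangles) and with 1 MUC1-CD array left out (orange squares), by comparison. The triangles of Ccn1 and of the second Ankrd1 probe set spread widest in the comparisons with Vector cultures, where Ccn1 lies at 0.95 and -0.54 in MUC1-CD cultures against Vector cultures.

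YAP and TAZ are co-activators that are held out of the nucleus by the Hippo kinases and act through TEAD factors. Of 7 measured genes for YAP, TAZ, TEAD and VGLL factors, 2 rose and 1 fell in MUC1-CD cultures against Vector cultures, and 2 rose and 1 fell in tumors against MUC1-CD cultures. Wwtr1, which encodes TAZ, rose by 1.62 (SE 0.16, limma adjusted p = 0.000427) and Tead4 by 1.25 (SE 0.22, limma adjusted p = 0.00409) in MUC1-CD cultures. Neither passed the test between tumors and MUC1-CD cultures, where Wwtr1 differed by -0.18 and Tead4 by 0.54. Of 15 measured Hippo kinases and adaptors, 2 rose and 7 fell in MUC1-CD cultures against Vector cultures (median -0.39, against -0.04 over 10037 genes), and 1 rose and 2 fell in tumors against MUC1-CD cultures (median -0.06, against 0.03); by gene, 21.2% of all genes were called higher and 24.9% lower in the first of these and 9.82% and 8.97% in the other. The kinase gene Lats2 changed by -1.29 and Amotl2, whose product binds YAP, by -1.30 in MUC1-CD cultures against Vector cultures. Lats2 and Amotl2 are themselves YAP targets and stand in both lists. In tumors against MUC1-CD cultures the counts of factors and of Hippo genes changed with the array left out. The calls over all probe sets changed there too.

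Other YAP and TAZ target genes did not move as 1 group. From a published target list without Ccn1, Ccn2 and Ankrd1, 17 of 19 genes were measured. In tumors against MUC1-CD cultures 5 rose, 2 fell and 10 were not called (median -0.08, against 0.03 over all genes). Of all genes, 9.82% were called higher and 8.97% lower there. Igfbp3, which binds insulin-like growth factors and passed the signal threshold through the tumor arrays alone, rose by 4.72, Gadd45a, a stress response gene, by 1.51 and Rbms3, which encodes an RNA-binding protein, by 1.29, while Crim1, which encodes a cysteine-rich membrane protein, changed by -1.11. In MUC1-CD cultures against Vector cultures 2 rose, 7 fell and 8 were not called (median -0.35, against -0.04 over all genes). Of all genes, 46.1% were called there (21.2% higher, 24.9% lower), so the number called says little about this list. F3, which encodes tissue factor, rose by 2.29, while Rbms3 changed by -2.62 and Ccdc80, of the matrix, by -1.55. In tumors against Vector cultures 4 rose and 8 fell (median -0.28, against -0.02 over all genes; 24.8% of all genes were called higher and 26.6% lower). The counts in tumors against MUC1-CD cultures and in MUC1-CD cultures against Vector cultures depended on which array was left out. So did the calls over all probe sets in both comparisons.

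**Figure D4:**
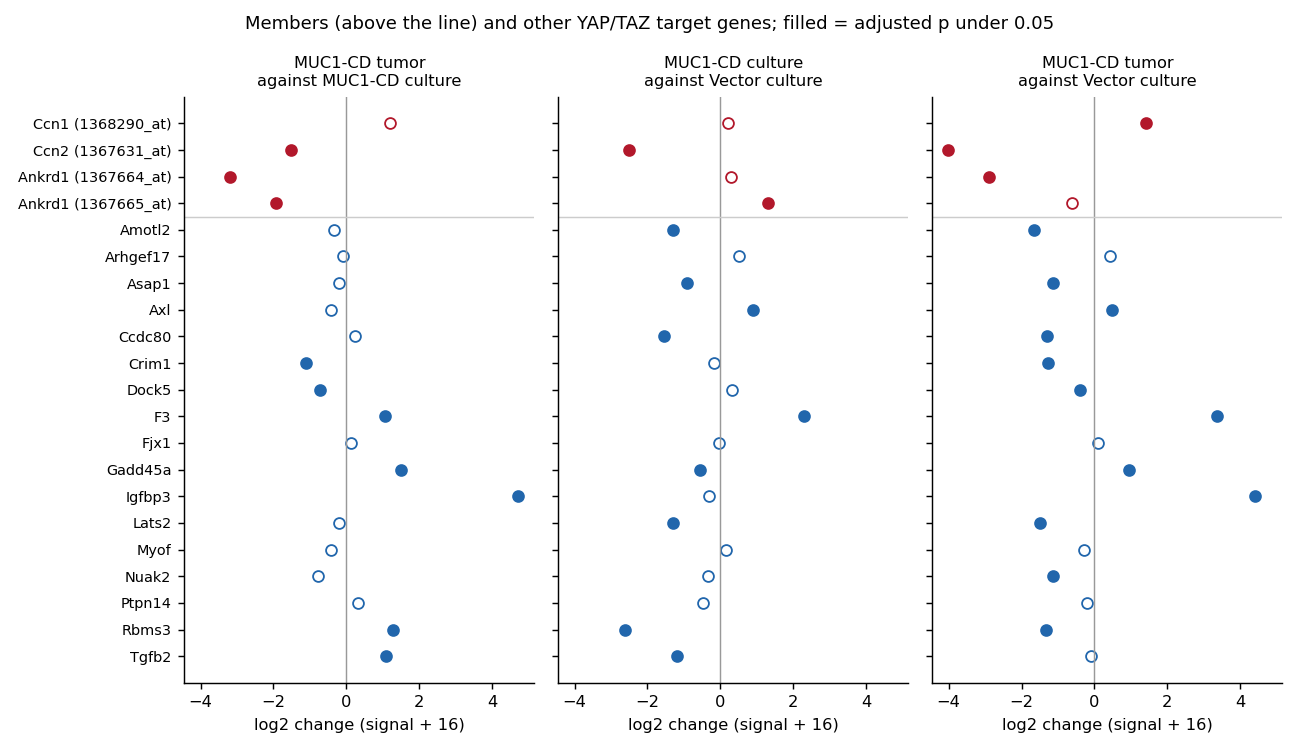
Change on the log2(signal + 16) scale of the members that are YAP targets (red, above the line) and of 17 other YAP and TAZ target genes (blue), in each comparison; filled points have an adjusted p under 0.05. Points lie on both sides of 0 in every panel. In tumors against MUC1-CD cultures Ankrd1 is at -3.18 and -1.93 while Igfbp3 is at 4.72. Igfbp3 passed the signal threshold through the tumor arrays alone.

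Genes of the other inputs to the CCN genes were counted in the same fit. Of 18 measured MRTF and SRF targets, genes of actin and contraction, 1 rose and 3 fell in tumors against MUC1-CD cultures and 2 rose and 6 fell in MUC1-CD cultures against Vector cultures, with medians of 0.12 and -0.00. Over all genes 9.82% were called higher and 8.97% lower in the first of these comparisons and 21.2% and 24.9% in the other, so the counts of this list and the next lie near the share of the whole array in tumors against MUC1-CD cultures. Fblim1, of focal adhesions, rose by 3.26 in tumors after a change of -2.73 in MUC1-CD cultures against Vector cultures. Of 17 measured TGF-beta feedback and target genes, 2 rose and 2 fell in tumors against MUC1-CD cultures, and 7 rose and 4 fell in MUC1-CD cultures against Vector cultures. Tgfb1, a ligand, rose by 3.63 in MUC1-CD cultures, and the secreted target Tgfbi, which changed by -6.30 there, rose by 4.36 in tumors. Both lists had counts that changed with the array left out in these comparisons, as did the calls over all probe sets.

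WNT feedback genes were counted beside Ccn4. Of 7 measured, 3 rose and 0 fell in tumors against MUC1-CD cultures, where 9.82% of all genes were called higher and 8.97% lower. Axin2, Nkd2 and Sfrp1 passed the signal threshold only through the tumor arrays, so this count is partly set by the threshold. In MUC1-CD cultures against Vector cultures 1 rose and 3 fell, where 46.1% of all genes were called. Axin2, a feedback inhibitor of WNT signaling, rose by 3.35 and Nkd2, another, by 2.75 in tumors. Since the threshold kept both only for their tumor signal, these rises say nothing about Ccn4. Tcf7, a transcription factor of the pathway, rose by 1.08 in tumors against MUC1-CD cultures and by 0.80 in MUC1-CD cultures against Vector cultures. The list did not follow it in the second of these, where 3 of its 7 genes fell. Ccn4 rose by 0.74 and 0.69 in the same comparisons, and both of its calls were lost with median scaling. The part of WNT signaling in the changes of Ccn4 was not tested.

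CCN proteins act through integrins and LRP receptors. Of 11 measured receptor genes, 1 rose and 0 fell in tumors against MUC1-CD cultures, where 18.8% of all genes were called. The gene that rose, Itgb2, changed by 4.33, is a leukocyte integrin that is also in the macrophage list, and passed the signal threshold only through the tumor arrays. In MUC1-CD cultures against Vector cultures 5 rose and 1 fell, with a median of 0.07 (-0.04 over all genes, of which 46.1% were called): Igf2r by 2.50, Lrp6 by 1.99, Itgb5 by 1.53 and Itga6 by 1.47 were higher. The receptor counts of both comparisons changed with the array left out, as did the calls over all probe sets.

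Matricellular proteins outside the CCN family were counted beside the CCN genes, since both share the extracellular matrix. Of 12 measured, 9 rose and 1 fell in tumors against MUC1-CD cultures, where 9.82% of all genes were called higher and 8.97% lower; Thbs4 and Smoc1 passed the signal threshold only through the tumor arrays. The adhesion protein gene Postn rose by 6.19, Thbs4, a thrombospondin, by 4.33 and Tnn, a tenascin, by 3.55. The count of 9 higher and 1 lower changed when tumor replicate 2 was left out, as did the calls over all probe sets. Of 13 fibroblast markers, 10 had both tumor arrays above both MUC1-CD culture arrays, and 3 (Thy1, Pdgfra and P4ha1) had both below. Among the 10 were Lum (467 and 519.6 in tumors, 14.7 and 1.6 in MUC1-CD cultures), Dcn (799.7 and 709 in tumors, 39.2 and 40.5 in MUC1-CD cultures) and Fap (588 and 513 in tumors, 32.5 and 59.3 in MUC1-CD cultures). These 3 passed the signal threshold only through the tumor arrays. The part of fibroblast markers in these changes was not tested. In MUC1-CD cultures against Vector cultures 1 rose and 7 fell (median -1.29, against -0.04 over all genes, of which 21.2% were called higher and 24.9% lower), among them Thbs3 at -3.40 and Tnc at -2.41. The CCN genes went both ways there. Ccn2, Ccn3 and Ccn5 changed by -2.50, -1.53 and -1.08, while Ccn4 rose by 0.69 and Ccn1 differed by 0.21 (not called).

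The profiles of the members over the 6 arrays were compared as Euclidean distances between mean-centred log2(signal + 16) values, in which 0 would be identical profiles. The nearest pair of CCN genes was Ccn1 and Ccn4, at 1.14, followed by Ccn2 and Ccn5, at 1.82, and the farthest was Ccn1 and Ccn2, at 5.59. Ankrd1 on its first probe set lay 1.97 from Ccn5 and 2.83 from Ccn2. The 2 probe sets of Ankrd1 lay 2.46 apart. Among 10037 genes, the 3 nearest to Ccn2 were Styxl1 (0.62), Ces5a (0.64) and Avpr1a (0.65), and the 3 nearest to Ccn5 were Fibin (0.32), Magi3 (0.33) and Ogfrl1 (0.33). For Ccn4 they were Hook3 (0.18), Mad2l2 (0.18) and Rab11fip5 (0.19), for Ccn3 Map4k3 (0.25), Bdh2 (0.26) and Abhd17c (0.29), and for Ccn1 Fcgrt (0.34), Zfp523 (0.41) and Borcs6 (0.48). Ankrd1 on its first probe set was nearest to Abhd3 (0.55), Ddah1 (0.85) and Grb14 (0.86), and on its second to Ppp1r14a (0.50), Htatip2 (0.57) and Pcyt2 (0.75). The distances rest on 6 arrays in 3 groups and describe likeness of profile only.

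The 6 genes lie on chromosomes 1 (Ccn2 and Ankrd1), 2 (Ccn1), 3 (Ccn5) and 7 (Ccn3 and Ccn4) of the GRCr8 assembly, and their neighbours in gene order, 20 measured genes on each side, differed between the lines. In MUC1-CD cultures against Vector cultures the neighbours of Ccn3 had a median change of -0.94, with 27 of 40 called lower, and those of Ccn4 a median of -0.96, also with 27 of 40 called lower, where 24.9% of all genes were called lower. The shift was not local to them: the 657 genes measured on chromosome 7 had a median of -0.65 (-0.04 over all genes), and 11 genes are in both neighbour sets. Ccn3 changed with its neighbours (-1.53), while Ccn4 rose (0.69) among neighbours that were 87.5% below 0. The neighbours of Ccn1 had a median of 1.01 with 29 of 40 called higher, against -0.19 over the genes of chromosome 2 and 21.2% of all genes called higher, where Ccn1 itself differed by 0.21. Around Ccn2, Ccn5 and Ankrd1 the medians were 0.29, -0.02 and 0.21, so the fall of Ccn2 by 2.50 stood among neighbours of which 16 were called higher and 3 lower. Between tumors and MUC1-CD cultures the neighbour medians of the 6 genes lay between -0.10 and 0.29. Whether the chromosomes or stretches differ in copy number between the lines was not tested.

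**Figure D5:**
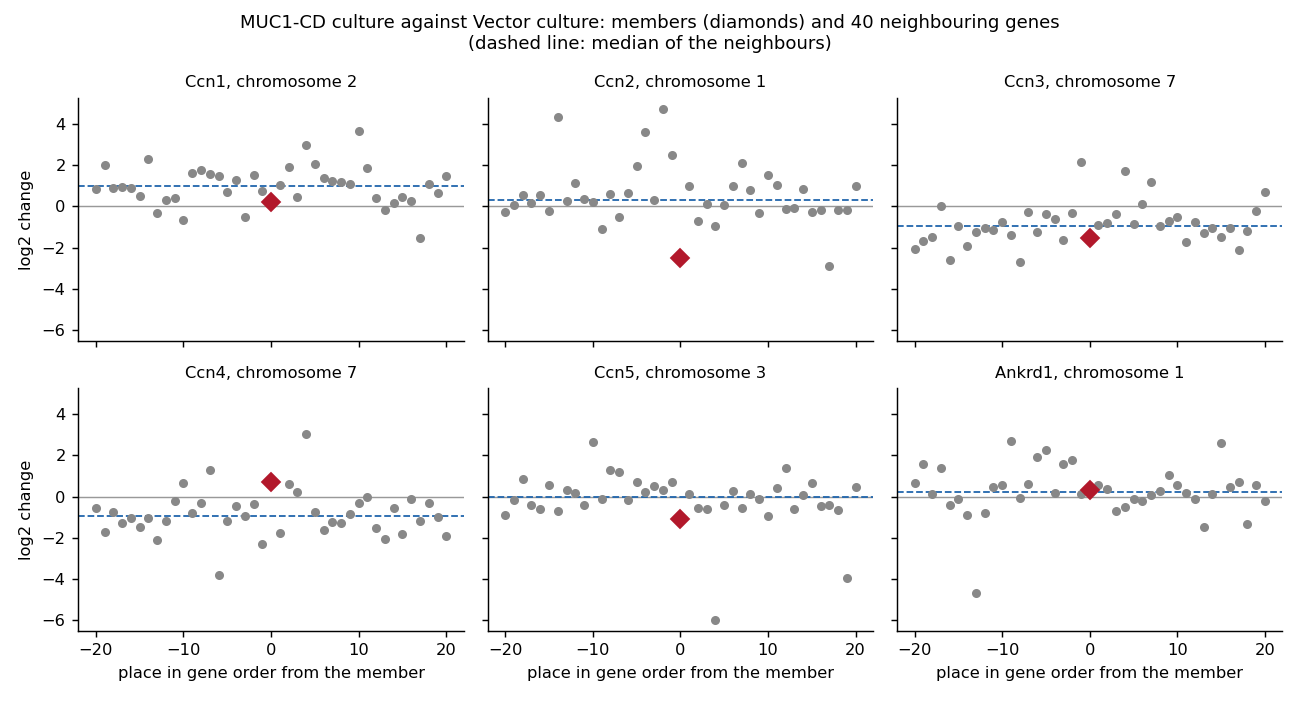
Change on the log2 scale in MUC1-CD cultures against Vector cultures of each member (red diamond, its probe set with the highest mean signal) and of the 20 measured genes on each side of it in gene order (grey points), with the median of the 40 neighbours as a dashed line. Most neighbours of Ccn3 and Ccn4 lie below 0 (medians -0.94 and -0.96) with Ccn4 above them, and most neighbours of Ccn1 lie above 0 (median 1.01).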

How the data were processed

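The deposited values are linear MAS5 intensity signals, 1 per probe set; the submitters' processing notes name MAS5 with no version, and no source used here gives filters. The authors' scaling, to a 2% trimmed mean of 500.2 on each of the 6 arrays, was kept. Of 31042 probe sets other than controls, 20826 named 1 gene in the platform annotation, 436 named several and 9780 were not listed. For 20764 probe sets the Entrez identifier matched a GRCr8 gene, and the symbol of that gene was used. Controls (57) described the arrays only.

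Signals were transformed as log2(signal + 16), and the 18625 probe sets with a mean at or above the 40th percentile (61.6) entered 1 limma model (limma 3.58.1, R 4.3.3; lmFit, then eBayes with trend) with group as its only term, which left 3 residual degrees of freedom and gave prior ones with a median of 3.70. Tests are 2-sided. With 2 arrays against 2, an exact permutation test cannot go below p = 0.333, so none was used. Replicates are biological by their labels. Replicate spread was larger between Vector arrays (SD of the difference 0.616 log2, against 0.284 in tumors and 0.257 in MUC1-CD cultures), so p values against Vector can be too small and those between MUC1-CD groups too large. Array replicate numbers did not pair across groups (correlations of replicate differences -0.045 to -0.018).

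A gene in a list was its measured probe set with the highest mean signal. The 6 members and 16 gene lists were chosen with earlier results of these data known; no list was tested as a set. Named were all members, up to 4 called genes of a list with the largest change in a comparison, the 3 genes nearest to each member, and Muc1. A few further list genes were named after their values were seen. The pathway counts of overlapping lists share genes. The alternatives were pseudocounts of 1 and 64, no filter or the 60th percentile, quantile or median scaling, a replicate block, no trend, fits of 2 groups, array weights, a minimum change of 1, averaged probe sets of a gene and each array left out. The code was tested on simulated data.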

Additional observations from a re-analysis of the deposited data

How the results depend on the processing

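Over the alternatives run on the 7 member probe sets in 3 comparisons, 301 changes kept their direction and their side of the threshold, 36 lost their call, 12 gained one and 5 turned round. The calls of Ccn2 and Ccn5 in each comparison, of the first Ankrd1 probe set in both comparisons with tumors and of Ccn4 in tumors against Vector cultures held under all alternatives run. The 5 that turned round were not called in the main comparison: in MUC1-CD cultures against Vector cultures Ccn1 with median scaling (-0.09), without MUC1-CD culture replicate 2 (-0.10) and without Vector replicate 2 (-0.54), and the first Ankrd1 probe set with median scaling (-0.02), and in tumors against Vector cultures the second Ankrd1 probe set without Vector replicate 1 (0.02). The number of member probe sets called with 1 array left out was 3 to 7 in tumors against MUC1-CD cultures (5 with all arrays), 3 to 6 in MUC1-CD cultures against Vector cultures (5) and 4 to 7 in tumors against Vector cultures (6); the single array left in a group is then taken to vary as the others do. With median scaling it was 3 in MUC1-CD cultures against Vector cultures. Over all probe sets, the calls with 1 array left out were 572 to 8097 in tumors against MUC1-CD cultures (2952), 4391 to 11503 in MUC1-CD cultures against Vector cultures (8522) and 5884 to 12434 in tumors against Vector cultures (9589). In tumors against MUC1-CD cultures they were 7801 with array weights and 8144 in a fit of these 2 groups, in both of which all 7 member probe sets were called. A minimum change of 1 on the log2 scale left 1445, 4618 and 5551 calls. With replicate number as a block, the labels stating no pairing, the member counts were 5, 5 and 6 as without it, and 2390, 8130 and 9208 probe sets were called. The Vector replicates decided single values in comparisons with Vector cultures: Ccn1 moved to 0.95 (called) in MUC1-CD cultures without Vector replicate 1, and the second Ankrd1 probe set to -1.25 (called) in tumors without Vector replicate 2. The causes were not tested, other than that a fit with fewer arrays has fewer degrees of freedom and that fits without Vector arrays leave out the widest spread. The 60th percentile filter removed Ccn3, so it gave no value there.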

Other observations

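The CCN gene that is not among the 6 genes described, Ccn6, was looked up after the other values were seen. Its probe set had signals of 12.3 and 18.0 in tumors, 28.6 and 37.4 in MUC1-CD cultures and 2.3 and 14.3 in Vector cultures, all below the threshold of 61.6, and it was not tested.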
